A study of Mus musculus with 16 samples.

Results

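Lactylation of lysine 18 on histone H3 (H3K18la) was compared between macrophages taken from ischemic calf muscle at 4 and at 2 days post injury (dpi). The comparison rests on the 4 H3K18la peak lists among the 16 deposited lists, 2 at 4 dpi and 2 at 2 dpi, which were chosen by their labels. Merging their peaks gave 29837 regions on chromosomes 1 to 19, X and Y, of which 9325 were called in all 4 libraries.

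H3K18la is a lactyl group carried by a lysine near the end of the histone tail. Lactate, the end product of glycolysis, can supply this group, and the modification is found at active promoters and enhancers. H3K4me3 marks active promoters, H3K27ac marks active promoters and enhancers, and H3K27me3 is laid down by Polycomb repressor complexes over silent genes. Macrophages of injured muscle first clear debris in an inflammatory state and later turn to a restorative state that helps the muscle to regrow. The comparison asks where the placing of lactylation differs between an early and a later moment of that turn.

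All mice were C57BL6J wild type males of 8 to 12 weeks, and in all of them the femoral artery had been ligated to make the hind limb ischemic. No uninjured control was made for this assay. Macrophages were sorted from digested calf muscle as CD45+ CD11b+ F4/80+ CD64+ cells at 4 dpi or at 2 dpi, and their nuclei were profiled by CUT&Tag, in which an antibody guides a transposase to the mark so that the DNA beside it is cut out and sequenced. The methods call the replicates biological but do not give the number of mice behind a library, so each p-value below measures the spread between these libraries. The sort cannot separate a change of lactylation within cells from a change in which macrophages were present. The positions are those of the mouse build GRCm39. The annotation at hand was of an older build, so regions are given by position and by the marks they carry, genes are not named, and the macrophage label was not checked against its marker genes. Regions called in all 4 H3K4me3 libraries (13298) stand in for promoters.

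The lists differed more between replicates than between time points. At 4 dpi they held 15511 peaks in replicate 1 and 17578 in replicate 2, against 27578 in replicate 1 and 15190 in replicate 2 at 2 dpi. The longest and the shortest list thus both came from 2 dpi, and the mean difference of -4839.5 peaks became 1354.5 without 2 dpi replicate 1. The peaks covered 25.7 and 32.5 Mb at 4 dpi, against 46.0 and 25.3 Mb at 2 dpi. Peak width was the one size that did not overlap between the time points, with medians of 1359 and 1489 bp at 4 dpi and of 1293 and 1356 bp at 2 dpi, but the nearest libraries were only a few bases apart and the difference of 99.5 bp turned to -93.5 bp when every list was cut to the length of the shortest. At H3K4me3 regions lay 43.3 and 40.3% of the peaks at 4 dpi, against 36.4 and 40.8% at 2 dpi. These sizes were compared with an exact permutation test, which cannot give a p below 0.333 for 2 libraries against 2. The exact 2-sided p was 0.333 for width, 0.667 for the share at H3K4me3 regions and 1 for list length and for covered length.

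**Figure D1:**
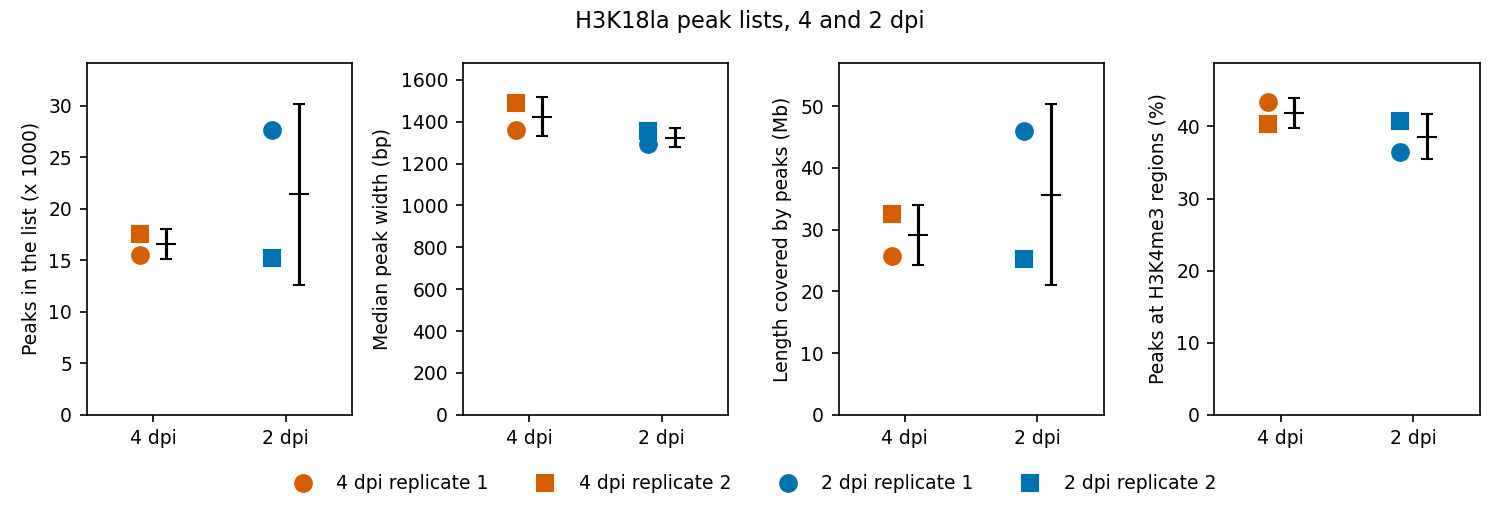
Number of peaks, median peak width in bp, covered length in Mb and percent of peaks at H3K4me3 regions for each H3K18la list, at 4 dpi (orange) and 2 dpi (blue), with circles for replicate 1 and squares for replicate 2. Bars give the mean and SD of 2 libraries. The 27578 peaks of 2 dpi replicate 1 stand above the 15190 to 17578 of the other lists.

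The extra peaks of 2 dpi replicate 1 were mostly its own. In this library 31.7% of the peaks lay in regions that no other H3K18la library called, against 6.65 and 6.82% in the 4 dpi libraries and 2.99% in 2 dpi replicate 2. These private peaks were weak, with a median percentile of 22.8 of total signal within their list. Total signal is the sum of coverage over a peak and was not normalized between libraries. Peaks in regions shared by all 4 libraries held 84.5 and 81.1% of the signal at 4 dpi, against 72.2 and 86.8% at 2 dpi, so that most of the signal of every list lay in the shared regions. Nearly every H3K18la peak of 4 dpi met an H3K27ac peak of its own time point (96.4 and 95.9%), against 74.0 and 88.7% at 2 dpi (exact permutation p = 0.333). The H3K27ac lists behind this share differ in length and in batch, and their part in it was not tested.

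Mean signal per covered base was 49.2 and 31.7 at 4 dpi, against 23.5 and 21.1 at 2 dpi, and the median total signal of a peak was 49372 and 33959 at 4 dpi, against 19409 and 20374.5 at 2 dpi. The depth of each library is unknown, so these levels cannot be read as more lactylation. Signal was therefore ranked within each library, and ranks were turned into normal scores. Across the 9325 shared regions the scores correlated most between both 2 dpi libraries (Pearson r = 0.84). The 4 dpi libraries correlated with r = 0.78. Replicate 1 of 4 dpi stood apart, with r = 0.70 and 0.71 to the 2 dpi libraries, whereas replicate 2 of 4 dpi was as close to 2 dpi (r = 0.79 and 0.78) as to its own replicate.

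Changes of rank between the time points were small at most shared regions. The shift, which is the normal score at 4 dpi minus that at 2 dpi, had a median of 0.00 and a middle range from -0.34 to 0.33. Ranking centres every library on the same score, so a general rise or fall of lactylation cannot show. This median, and the near balance of higher and lower regions, follow largely from that. Both 4 dpi libraries ranked above both 2 dpi libraries at 23.8% of the regions and below them at 23.0%. A fit across all shared regions (limma, adjusted p under 0.05) called 11 of them, or 0.118%, of which 4 rose (0.0429%) and 7 fell (0.0751%). At an unadjusted p under 0.05, 7.15% were higher and 7.61% lower at 4 dpi.

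The largest rise was at an H3K27ac-marked place far from any promoter-like region. At chr6:145747045-145750491, 52.1 kb from the nearest shared H3K4me3 region and with a peak in 1 of 4 H3K4me3 libraries, H3K18la ranked at percentiles 89.6 and 85.2 in the 4 dpi libraries, against 26.9 and 22.1 in the 2 dpi libraries. The called stretch was 3.26 and 2.78 kb long at 4 dpi, against 1.24 and 0.994 kb at 2 dpi. A longer stretch adds to total signal, so length and rank are not separate results. The shift of the region was 1.85 (SE 0.29, limma adjusted p = 0.0234), and H3K27ac rose there too (shift 1.67, limma adjusted p = 0.0381). Ranked by mean signal per called base, the H3K18la shift was 1.06 (limma adjusted p = 0.603).

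The rise with the smallest p, at chr9:40231151-40238402, reached the top of the 4 dpi lists. Its percentiles were 99.4 and 99.1 at 4 dpi, against 89.6 and 88.3 at 2 dpi (shift 1.23, SE 0.13, limma adjusted p = 0.00423). Its called length was 6.58 and 7.25 kb at 4 dpi, against 6.42 and 4.20 kb at 2 dpi. It carried H3K27ac in all 4 of its libraries and H3K4me3 in 3 of 4, and H3K27ac rose (shift 0.83, limma adjusted p = 0.0388).

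The other rises were broad domains with H3K4me3 that were strong at both times. At chr8:122864327-122876707 the percentiles were 99.8 and 99.6 at 4 dpi, against 95.4 and 98.4 at 2 dpi (shift 0.83, SE 0.14, limma adjusted p = 0.0480). H3K27ac rose with a shift of 1.08 (limma adjusted p = 0.0381) while H3K4me3 shifted by 0.03 (limma adjusted p = 0.934). At chr13:13551944-13568099, the longest of the called regions, the percentiles were 99.8 and 99.8 at 4 dpi, against 98.8 and 99.1 at 2 dpi (shift 0.56, SE 0.10, limma adjusted p = 0.0480). Here H3K4me3 rose (shift 0.43, limma adjusted p = 0.00962) and so did H3K27ac (shift 0.73, limma adjusted p = 0.0289).

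The largest falls lay on chromosome 12. At chr12:32290250-32294726 the percentiles were 68.3 and 40.5 at 4 dpi, against 94.6 and 97.6 at 2 dpi (shift -1.67, SE 0.24, limma adjusted p = 0.0214). The 4 dpi libraries differed from each other here more than in any other called region, but both lay below both 2 dpi libraries. H3K27ac, called there in all 4 of its libraries, had a shift of 0.57 (limma adjusted p = 0.539), in the other direction. At chr12:95658159-95665639 the percentiles were 59.9 and 67.1 at 4 dpi, against 95.2 and 94.1 at 2 dpi (shift -1.27, SE 0.19, limma adjusted p = 0.0214). The called length there was 2.19 and 2.58 kb at 4 dpi, against 7.48 and 3.98 kb at 2 dpi. H3K4me3 fell at this place (shift -0.70, limma adjusted p = 0.00033), while H3K27ac had a shift of -0.06 (limma adjusted p = 0.933) and H3K27me3 one of -0.04 (limma adjusted p = 0.803). H3K27me3 was called there in all 4 of its libraries too. Over all 7515 shared H3K27me3 regions 0.892% rose and 0.0532% fell (limma).

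A pair of falls were at regions that carried H3K27ac but no H3K4me3 region shared by its 4 libraries. At chr10:93188765-93194906 the percentiles were 86.0 and 90.9 at 4 dpi, against 98.2 and 98.9 at 2 dpi (shift -0.99, SE 0.15, limma adjusted p = 0.0214). H3K27ac had a shift of -1.20 there (limma adjusted p = 0.0545). At chr1:163206275-163212429 they were 94.5 and 95.1 at 4 dpi, against 99.3 and 99.4 at 2 dpi (shift -0.86, SE 0.12, limma adjusted p = 0.0177), and 3 of 4 H3K4me3 libraries had a peak there. At the chromosome 1 region called length overlapped between the time points, with 2.63 and 5.60 kb at 4 dpi against 6.09 and 5.35 kb at 2 dpi.

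The fall at chr17:48498654-48509375 was at a broad lactylated domain that neither H3K4me3 nor H3K27ac shared. Its percentiles were 96.3 and 92.2 at 4 dpi, against 99.6 and 99.6 at 2 dpi (shift -1.06, SE 0.13, limma adjusted p = 0.0116). The nearest H3K4me3 region shared by all 4 libraries was 113 kb away, but H3K4me3 peaks that were not shared lay closer. A peak of 1 of 4 H3K27ac libraries lay over the domain. Its called length was somewhat shorter at 4 dpi, with 9.06 and 9.39 kb against 10.7 and 10.4 kb at 2 dpi.

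Both remaining falls lay close together on X. At chrX:169080809-169081618 the percentiles were 97.7 and 98.2 at 4 dpi, against 99.7 and 99.7 at 2 dpi (shift -0.73, SE 0.10, limma adjusted p = 0.0177). At chrX:169113672-169116800 they were 97.4 and 98.2 at 4 dpi, against 99.6 and 99.7 at 2 dpi (shift -0.70, SE 0.11, limma adjusted p = 0.0214). Their called lengths were almost the same in every library (0.794 to 0.81 kb, and 2.94 to 3.03 kb). Their maximum signal was 1550 to 3118 and 1254 to 2573, against list medians of 51 to 157 for the maximum of a peak. Ranked by maximum in place of total signal, their shifts were -0.06 and -0.14. At this pair H3K27ac had shifts of -0.63 and -0.65 (limma adjusted p = 0.482 and 0.571). Between them, chrX:169082066-169082642 (shift -0.80, limma adjusted p = 0.0532) and chrX:169094538-169097816 (shift -0.48, limma adjusted p = 0.0918) did not pass.

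**Figure D2:**
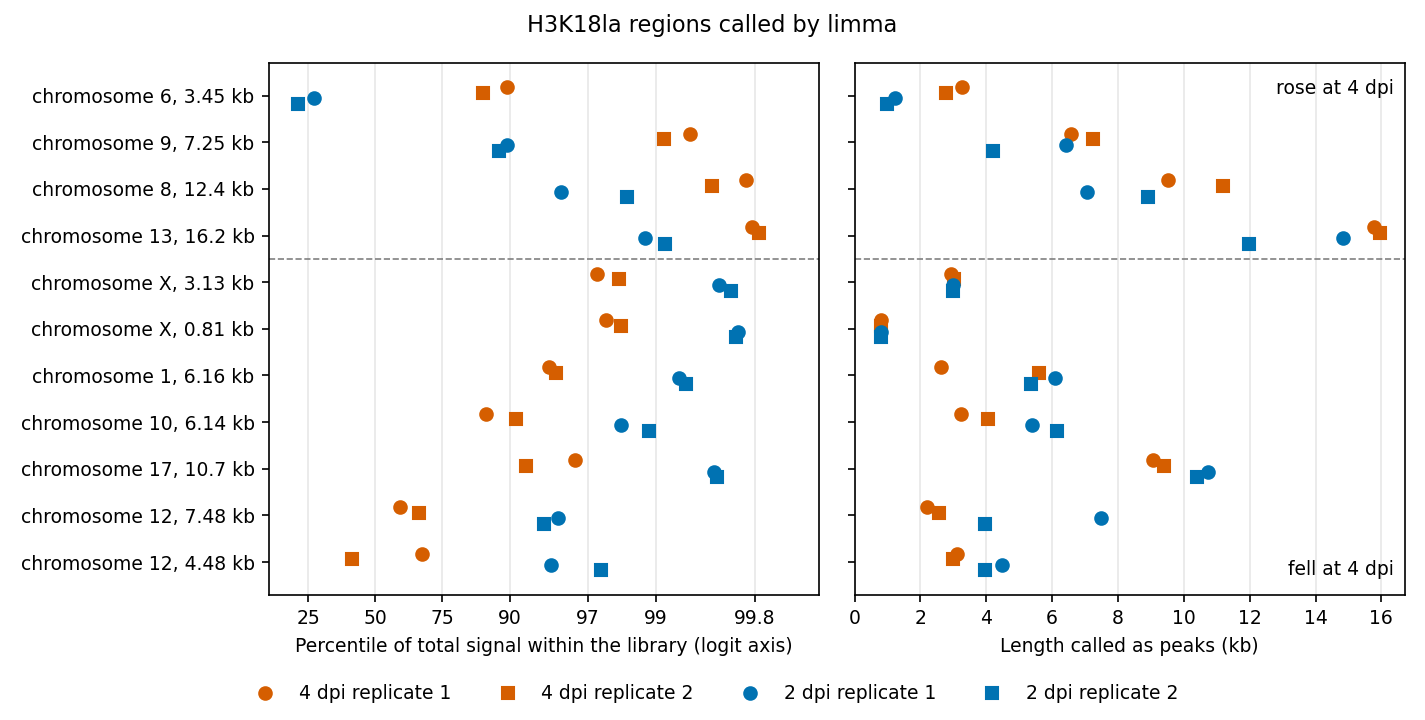
Left, percentile of total signal among the shared regions of a library (logit axis), and right, length called as peaks in kb, for the 11 called regions, named by chromosome and width. Points are libraries of 4 dpi (orange) and 2 dpi (blue), circles replicate 1 and squares replicate 2. The region on chromosome 6 stands at percentiles 89.6 and 85.2 at 4 dpi and at 26.9 and 22.1 at 2 dpi, while the chromosome X regions kept their length.

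These calls depend on how strength is measured. With maximum signal, or with mean signal per called base, 0 regions passed, although all 11 kept their direction, with adjusted p from 0.0933 to 0.906 for the maximum (limma). The single-library checks changed the counts as well. Without 4 dpi replicate 2, 56 regions rose and 228 fell, without 4 dpi replicate 1 only 1 rose and 12 fell, without 2 dpi replicate 1, 16 rose and 4 fell, and without 2 dpi replicate 2, 4 rose and 1 fell.

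At promoter-like regions, those with H3K4me3, the 10 shared H3K18la regions with the smallest p in each direction were taken, although only 3 of the 20 passed the test. Counts cover all 20, but only those with the clearest values are described. H3K4me3 did not pass at some of the others, such as chr2:128230405-128238671 (limma adjusted p = 0.409) and chr15:83446163-83451172 (limma adjusted p = 0.105). H3K4me3 was measured with another antibody in its own libraries. It rose at 6 of the 10 regions where H3K18la was higher and fell at 7 of the 10 where it was lower, and it passed in the opposite direction at none of them (limma). Over all 13298 H3K4me3 regions, 7.78% rose and 8.07% fell. Among all H3K18la regions with H3K4me3, this mark rose at 5.79% and fell at 13.7%.

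On the higher side, chr4:136617453-136623435 ranked at percentiles 90.0 and 85.0 in H3K18la at 4 dpi, against 15.5 and 47.7 at 2 dpi (shift 1.70, limma adjusted p = 0.0690). Its called length was 4.85 and 5.98 kb at 4 dpi, against 1.39 and 1.65 kb at 2 dpi. H3K4me3 rose there (shift 1.13, limma adjusted p = 6.78e-05) and H3K27ac rose as well (shift 1.00, limma adjusted p = 0.0381), so that all 3 active marks were higher. At chr11:70348460-70351788 the percentiles were 84.6 and 82.3 at 4 dpi, against 31.3 and 6.45 at 2 dpi (shift 1.98, limma adjusted p = 0.0690). Only H3K4me3 passed at this place (shift 0.59, limma adjusted p = 0.00604), with an H3K27ac shift of 0.48 (limma adjusted p = 0.226). A broad domain at chr13:12648453-12666611, less than a megabase from the called domain of chromosome 13, stood at 99.8 and 99.8 at 4 dpi, against 99.1 and 99.4 at 2 dpi (shift 0.47, limma adjusted p = 0.0690). H3K4me3 and H3K27ac both rose at it (shifts 0.49 and 0.63, limma adjusted p = 0.00242 and 0.0381). At chr8:106070633-106074925 the percentiles were 87.6 and 71.7 at 4 dpi, against 30.4 and 20.4 at 2 dpi, and H3K4me3 rose (shift 0.57, limma adjusted p = 0.00236) with an H3K27ac shift of -0.08 (limma adjusted p = 0.880).

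On the lower side, chr9:123764338-123769858 had percentiles of 57.0 and 81.5 at 4 dpi, against 96.1 and 95.8 at 2 dpi (shift -1.21, limma adjusted p = 0.0664). H3K4me3 fell there (shift -0.94, limma adjusted p = 0.000297), and the H3K27ac shift of -1.24 did not pass (limma adjusted p = 0.0654). At chr2:77877871-77885700 the percentiles were 78.1 and 92.6 at 4 dpi, against 98.6 and 97.9 at 2 dpi, and H3K4me3 fell by 1.32 normal scores (limma adjusted p = 0.000141). At chr9:94550239-94554636 they were 43.0 and 45.0 at 4 dpi, against 87.1 and 85.2 at 2 dpi, the widest gap in percentile among the 10 on this side. The called length of that region was 1.48 and 1.53 kb at 4 dpi, against 3.74 and 4.02 kb at 2 dpi. On chromosome 1 a pair of neighbours, chr1:182338651-182350798 and chr1:182352348-182357447, were lower together (shifts -0.61 and -0.96, limma adjusted p = 0.0859 and 0.0690), and H3K4me3 fell at both (limma adjusted p = 0.0455 and 0.0376).

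Where H3K4me3 was not shared by its 4 libraries, some of the regions next in order of p had wide swings. They were picked after their values were seen. At chr9:118445386-118448619 the percentiles were 90.8 and 76.9 at 4 dpi, against 21.4 and 3.49 at 2 dpi (shift 2.33, limma adjusted p = 0.0532), and H3K27ac rose by 3.14 normal scores (limma adjusted p = 0.00373). No H3K4me3 library had a peak over it, but a shared H3K4me3 region lay 3.20 kb away. At chr17:5622760-5627889 they were 91.4 and 85.8 at 4 dpi, against 48.0 and 13.8 at 2 dpi (shift 1.79, limma adjusted p = 0.0690), with an H3K27ac rise of 1.52 (limma adjusted p = 0.0381). The opposite swing, at chr5:43956107-43960918, had percentiles of 9.66 and 5.53 at 4 dpi, against 75.6 and 80.9 at 2 dpi (shift -2.23, limma adjusted p = 0.0532), with peaks of 3 of 4 H3K27ac libraries and of no H3K4me3 library. At chr13:89973757-89978464 they were 10.3 and 34.1 at 4 dpi, against 84.1 and 88.5 at 2 dpi (shift -1.94, limma adjusted p = 0.0532), with an H3K27ac shift of 0.22 (limma adjusted p = 0.812) and peaks in 2 of 4 H3K4me3 libraries.

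No kind of region moved in rank as a whole against the others, and a change common to all kinds could not show in ranks. Counting marks called in all 4 of their libraries, the median shift was 0.00 at 4287 regions with H3K4me3 and H3K27ac, -0.01 at 3628 with H3K27ac alone, 0.06 at 118 with H3K4me3 alone and 0.03 at 1292 with neither. The share with both 4 dpi libraries above both 2 dpi libraries was 23.4, 23.8 and 22.0% for the first kinds in that order and 323 of 1292 for regions with neither mark, and the share with both below was 21.9, 24.7, 18.6 and 22.3% over all the kinds in the same order. These shares lie near the 23.8 and 23.0% over all regions. The 346 regions with H3K27me3 were alike, with 26.0% above and 22.8% below. Ranks followed the marks at both times instead, since regions with H3K4me3 and H3K27ac had median percentiles of 58.1 and 57.6 at 4 dpi and of 59.0 and 56.1 at 2 dpi, while those with neither had 28.0 and 26.1 at 4 dpi and 24.8 and 26.7 at 2 dpi. By width, 8 of the 11 calls were among the widest 1865 regions (4.24 to 23.6 kb), where 25.9% lay above and 27.8% below. In the narrowest 1865 (up to 1.79 kb) 22.3% lay above and 18.2% below, and 1 region was called. Among the autosomes, the share above was 28.4% on chromosome 4 and 19.3% on chromosome 6, the ends of its range, and the share below was 29.3% on chromosome 13 and 18.2% on chromosome 11.

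A small share of the moved regions lay side by side. A run was defined, after the data were seen, as at least 5 neighbouring regions, each no more than 50 kb from the next, that were all higher or all lower. A shared region counted as moved when the time points did not overlap, and regions gained or lost counted too, while regions with any other pattern of calls were passed over. There were 17 runs higher at 4 dpi, holding 96 of the 2674 regions moved that way (3.59%), and 25 lower, holding 142 of 3447 (4.12%), and how many such runs would arise with no difference between the time points was not tested. Without a library the counts grew to 35 to 86 higher and 63 to 408 lower, since fewer libraries must then not overlap. Of the 11 called regions, 3 fell in a run, on chromosomes 8, 10 and 17. Several H3K18la regions of a run can lie in the same region of another mark. Counts of that mark in runs then hold the same change more than once.

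The longest lower run, both in regions and in span, was at chr10:93141036-93262763 (122 kb), where 8 of 8 regions were shared by all libraries. Their median percentiles were 62.6 and 69.3 at 4 dpi, against 83.6 and 90.1 at 2 dpi, and the shifts ran from -1.07 to -0.28, with the called region in the middle. H3K27ac was lower at 7 of the 7 regions where it was measured, with a median shift of -0.97, and none passed. H3K4me3 was lower at both of its regions and fell at 1. A run with as many regions at chr19:8957359-9055169 joined 6 shared and 2 lost regions, with a median shift of -0.39.

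The higher run with the most regions was at chr8:122836617-122909680, with 4 shared and 4 gained regions over 73.1 kb around the called domain. The shared regions had shifts from 0.59 to 1.13. The gained ones were weak, at list percentiles between 1.32 and 48.7 in the 4 dpi lists. H3K27ac was higher at 3 of the 3 shared regions where it was measured and rose at 2. The higher run with the longest span was at chr3:144294289-144425533 (131 kb), where all 7 regions were shared, with median percentiles of 65.7 and 62.0 at 4 dpi, against 39.9 and 41.9 at 2 dpi. H3K27ac was higher at 7 of 7 and H3K4me3 at 0 of 3, and neither passed at any of them.

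A stretch of chromosome 17 held a pair of lower runs 40 kb apart. The first, chr17:48471294-48540845, had 4 shared and 2 lost regions, with a median shift of -1.21, and the second, chr17:48580971-48664943, had 6 shared regions with a median of -0.55. The shared regions of the first had median percentiles of 25.1 and 49.0 at 4 dpi, against 79.6 and 80.9 at 2 dpi. Within it, chr17:48535374-48540845 stood at 21.2 and 25.4 at 4 dpi, against 84.2 and 76.8 at 2 dpi (shift -1.60, limma adjusted p = 0.0690). Shared H3K4me3 was absent from the first run, and H3K27ac was shared at 1 of its regions. The second run had H3K4me3 at 2 and H3K27ac at 4 regions, and both marks were lower at each of these without passing. Neighbouring H3K18la regions there lay in the same H3K27ac region, so its shift was counted more than once. On chromosome 6 the run at chr6:100388918-100488785 was alike in having little of the other marks. Of its 7 regions, 1 carried H3K27ac and none H3K4me3, and its shared regions had shifts from -1.61 to -0.42.

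**Figure D3:**
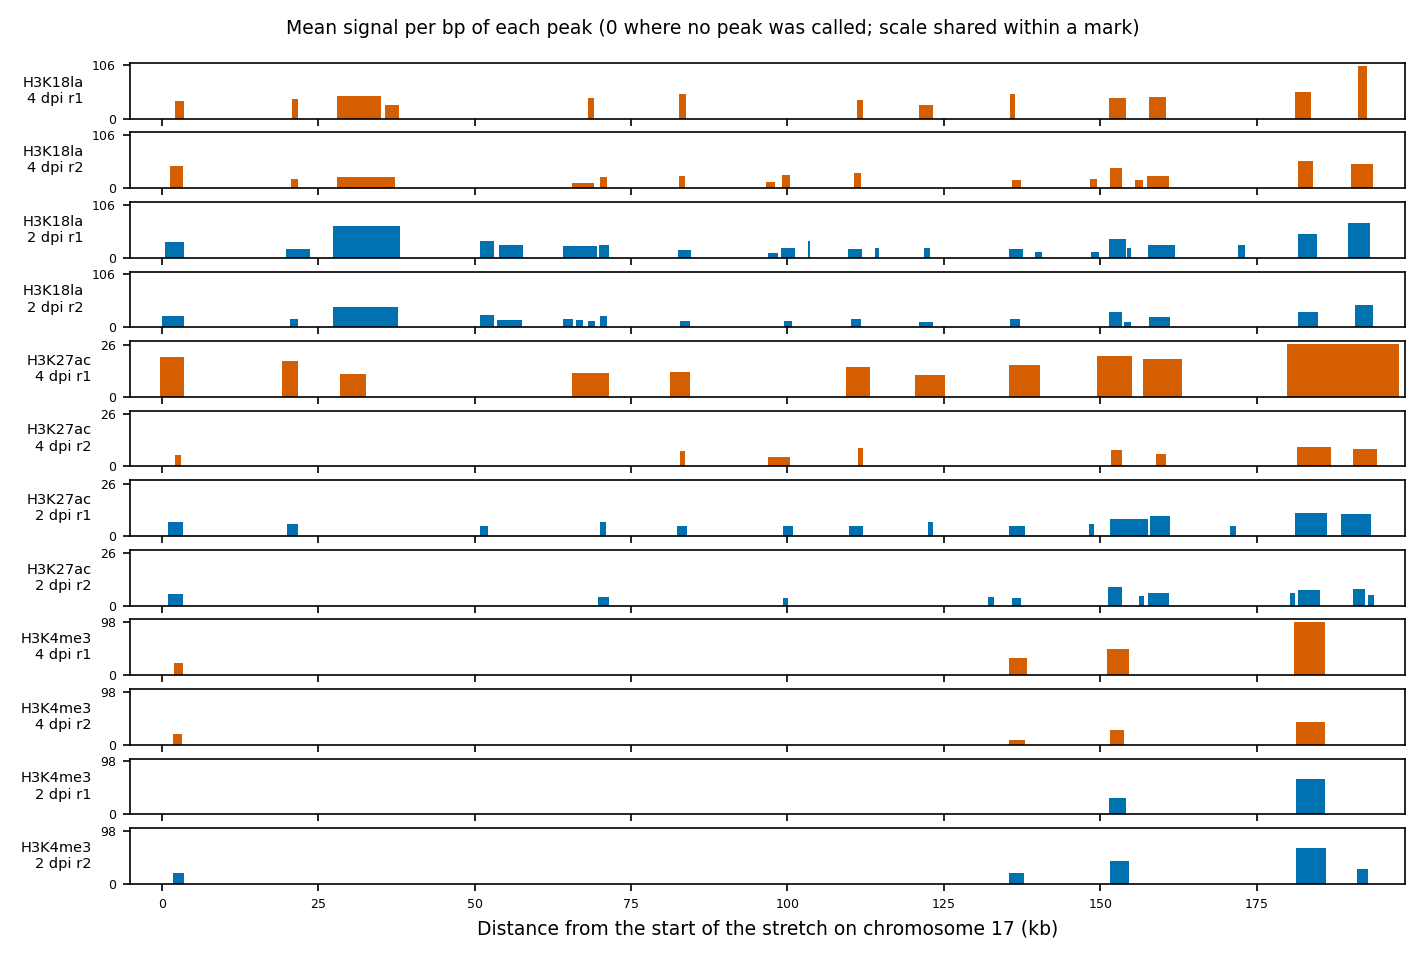
Mean signal per bp of each called peak across both lower runs of chromosome 17 (193.65 kb, distance in kb from the start of the first run) in the libraries of H3K18la, H3K27ac and H3K4me3, at 4 dpi (orange) and 2 dpi (blue). Heights are not normalized between libraries. Both 2 dpi H3K18la libraries have the pair of peaks between 50 and 60 kb that neither 4 dpi library has.

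Over all 17 higher runs, H3K27ac was higher at 52 of the 64 shared regions where it was measured and rose at 12, and over the 25 lower runs it was lower at 75 of 86 and fell at 0. Among all H3K18la regions with H3K27ac it was higher at 55.1%. H3K4me3 was higher at 15 of 26 regions of the higher runs and rose at 3, whereas in the lower runs it was lower at 34 of 37 and fell at 16. Among all H3K18la regions with H3K4me3 this mark was higher at 37.9%, rose at 5.79% and fell at 13.7%. Over all H3K27ac regions 0.178% rose and 0.00741% fell (limma), so that falls of H3K27ac were scarce everywhere.

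Across all shared regions, H3K18la shifts went along with those of both active marks, weakly. Pearson's r was 0.28 with H3K4me3 over 4405 regions, 0.27 with H3K27ac over 7915 and -0.12 with H3K27me3 over 346 (Spearman's rho 0.28, 0.27 and -0.13). The points are regions, which are not independent, and libraries of different marks may come from the same cells or mice. Leaving out any single library of either mark gave r of 0.21 to 0.28, 0.18 to 0.32 and -0.16 to -0.08 in the same order. H3K27ac 4 dpi replicate 1 was the one H3K27ac library of its batch by its label, and without it r was 0.32.

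Changes of the other marks were also counted at H3K18la regions with an unadjusted p under 0.05. Where H3K18la was lower, H3K4me3 fell at 118 of 298 regions and rose at 3, against 13.7% that fell and 5.79% that rose among all H3K18la regions with H3K4me3. Where H3K18la was higher, H3K4me3 rose at 51 of 279 and fell at 11. H3K27ac rose at 25 of 558 regions where H3K18la was higher (4.48%, against 0.442% over all H3K18la regions with H3K27ac) and fell at 1. Where H3K18la was lower, H3K27ac changed at 0 of 620 (limma, adjusted p under 0.05). Only 0.0253% of all H3K18la regions with H3K27ac had a fall of that mark, so this 0 is near the share over all. The H3K27ac shift was above 0 at 34.4% of the 620, against 55.1% over all. Several H3K18la regions can lie in one region of another mark, and these counts then hold its change more than once.

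**Figure D4:**
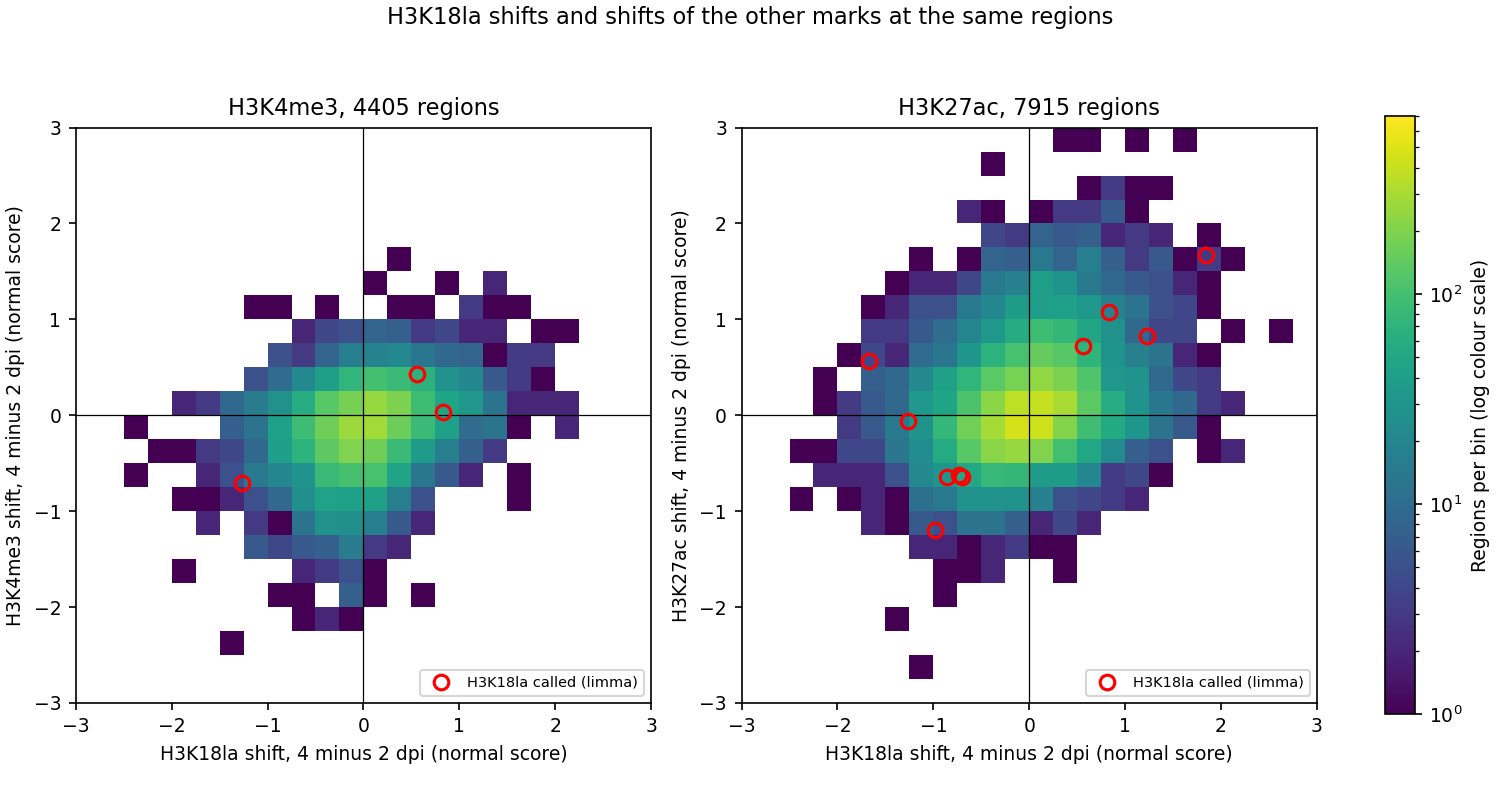
Shift of H3K18la (x axis) against the shift of H3K4me3 (left, 4405 regions) and of H3K27ac (right, 7915 regions) at the same place, both 4 minus 2 dpi in normal scores. Colour gives the number of regions per bin on a log scale, and red circles are the called H3K18la regions. One H3K27ac region lies beyond the axis. The called falls of H3K18la include one with an H3K27ac shift of 0.57.

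Regions called at one time only were narrower and lay farther from promoter-like regions than those called in all libraries. Both 4 dpi libraries and neither 2 dpi library called 457 regions (gained, 1.53% of the 29837), and both 2 dpi libraries and neither 4 dpi library called 1304 (lost, 4.37%). Without 2 dpi replicate 1, the longest list, 2100 were gained and 1758 lost, without 2 dpi replicate 2, 583 and 10046, without 4 dpi replicate 1, 1655 and 1875, and without 4 dpi replicate 2, 1488 and 3083, and with lists of equal length 929 and 937, so the order of the counts rests on the lists used. Gained regions had median list percentiles of 29.0 and 27.3 in the 4 dpi lists, and lost ones of 48.1 and 21.4 in the 2 dpi lists. Median widths were 1450 bp for gained and 1426.5 bp for lost regions, against 1474 bp over all regions and 2637 bp for those called in all 4 libraries. A region joins the peaks of every list that calls it, so regions called in all 4 tend to be wider by construction. Wider regions also meet other marks more easily. The median distance to a shared H3K4me3 region was 17.6 kb for gained and 10.3 kb for lost regions, against 1.47 kb for those called in all 4 libraries and 7.21 kb over all regions. Neither H3K4me3 nor H3K27ac was shared at 54.0% of the gained and 48.2% of the lost, against 13.9% of those called in all 4 and 36.4% over all regions. Shared H3K4me3 lay at 23.2% of the gained and 26.1% of the lost regions, within the 18.1 to 32.1% of regions called in a single library.

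H3K27ac, but hardly H3K4me3, was called in different shares at the gained regions by time. H3K27ac peaks met 87.1 and 77.9% of them at 4 dpi, against 48.6 and 33.3% at 2 dpi. Replicate 1 of H3K27ac at 4 dpi was alone in its batch by its label, and within the other batch the shares were 77.9% at 4 dpi, against 48.6 and 33.3% at 2 dpi. At the lost regions the shares were 78.6 and 53.1% at 4 dpi, against 66.4 and 41.9% at 2 dpi, and so overlapped between the times. The lists of H3K27ac at 4 dpi called more in general, and regions called in all 4 H3K18la libraries were met in 97.2 and 94.7% at 4 dpi, against 94.1 and 82.9% at 2 dpi. Among all 29837 regions the shares met were 84.9 and 69.3% at 4 dpi, against 68.1 and 52.7% at 2 dpi. H3K27ac was itself gained at 118 of the 457 gained regions (25.8%) and lost at 0, and it was gained at 60 (4.60%) and lost at 16 (1.23%) of the 1304 lost ones. Over all 29837 regions these shares were 6.66 and 0.426%. H3K4me3 was gained at 9 (1.97%) and lost at 0 of the gained regions, and gained at 9 and lost at 12 of the lost ones (0.690 and 0.920%). Over all regions H3K4me3 was gained at 1.43% and lost at 0.597%.

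**Figure D5:**
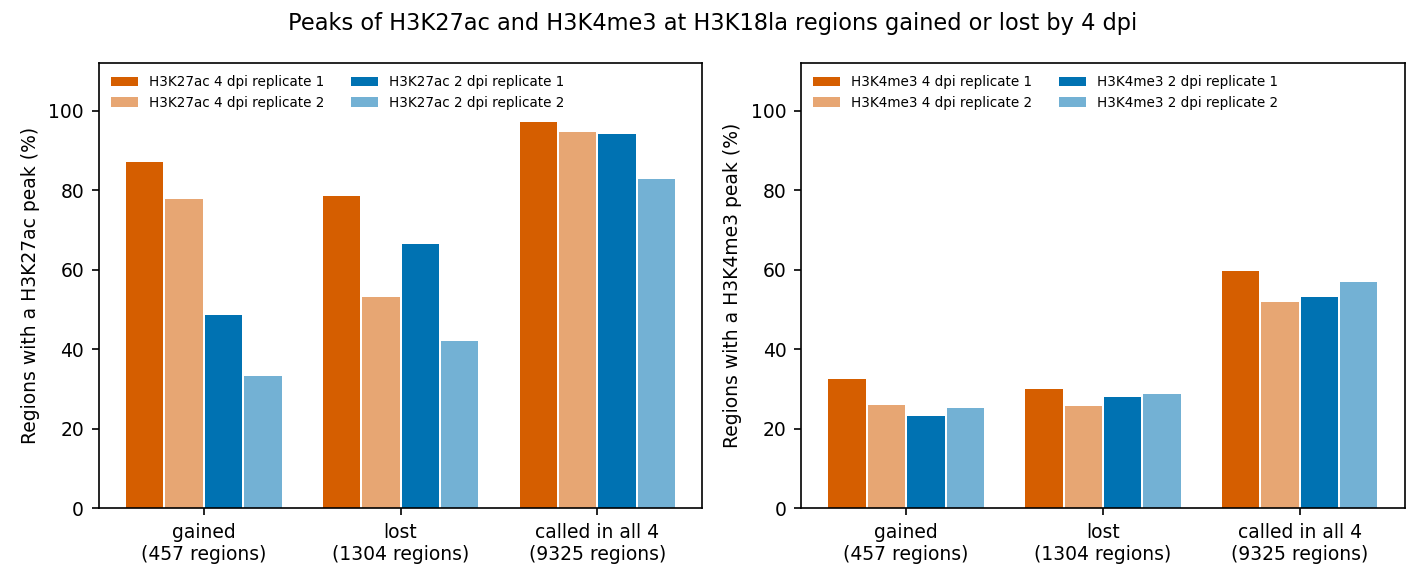
Percent of H3K18la regions met by a peak of H3K27ac (left) or H3K4me3 (right) in each library of that mark, for 457 regions gained, 1304 lost and 9325 called in all 4 H3K18la libraries. Orange bars are 4 dpi and blue bars 2 dpi libraries, dark replicate 1 and light replicate 2. At gained regions the H3K27ac bars stand at 87.1 and 77.9% at 4 dpi and at 48.6 and 33.3% at 2 dpi.

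The 10 gained regions with the highest list percentiles were led by chr1:106158501-106160625, at 76.7 and 80.7 in the 4 dpi lists, where H3K27ac was called in both 4 dpi libraries and neither 2 dpi library. It was followed by chr6:33799677-33801905 (83.0 and 58.8) and chr6:39031390-39033756 (81.7 and 56.8). H3K27ac was called in both 4 dpi libraries at all 10, while these libraries met 84.9 and 69.3% of all 29837 regions. Both 2 dpi libraries called H3K27ac at 1 of the 10, chr19:10924116-10927253, the only gained region of the 10 at shared H3K4me3. Another, chr17:50426800-50429472 (71.1 and 55.3), belonged to a higher run at chr17:50404717-50497114 in which the shared chr17:50492025-50493688 stood at percentiles 45.5 and 14.3 at 4 dpi, against 1.56 and 0.284 at 2 dpi.

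The 10 lost regions with the highest list percentiles ranked higher in their lists than the 10 gained ones. They were the top of 1304 regions, against 457 for the gained ones, and the lists differ in length. The strongest were the chromosome 17 pair, chr17:48524960-48529033 (92.9 and 87.7 in the 2 dpi lists) and chr17:48522164-48524479 (90.1 and 85.5). H3K27ac was called at the first in no library of either time and at the second in 1 library of 2 dpi. Next came chr7:46761876-46764174 (89.7 and 77.9), chr5:17760985-17762996 (85.4 and 81.2) and chr16:95688277-95689650 (86.1 and 79.5). At the last of these, 101 kb from shared H3K4me3, H3K27ac was called in both 2 dpi libraries and in neither 4 dpi library. The 10 held 2 regions at shared H3K4me3, chr10:79820150-79823656 and chr16:95238817-95243612.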

How the data were processed

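CUT&Tag peak lists of 16 libraries were used, of which 4 were H3K18la. The submitters' processing notes name Trim Galore 0.6.6, Bowtie2 2.4.4, SAMtools 1.13 and bedtools 2.30 for the reads, and SEACR 1.3 for peaks, called per library. The deposited signal is the sum and the maximum of coverage over each peak, which the authors did not normalize between libraries. The methods name mm10 for the alignment, but the labels give GRCm39, and on 5 chromosomes peaks lie beyond the ends of the older build, so GRCm39 was used. The study's methods state a blacklist filter, and none was added here. Whether the lists had been filtered is not known. Read depth is not given, so no counting error can be stated.

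Peaks on chromosomes 1 to 19, X and Y were merged where they overlapped by at least 1 bp. Total signal was summed per region, ranked within a library and converted to normal scores. In R 4.3.3, limma 3.58.1 (trended, robust variance, Benjamini-Hochberg over all regions in all 4 libraries) was used to test 4 minus 2 dpi. Each other mark was fitted in the same way on its own libraries and read at the overlapping region. The script was tested on simulated data. List sizes were compared with exact permutation tests. H3K18la regions named are all called ones, the 10 gained and 10 lost with the highest mean list percentile, and of the 10 smallest p in each direction at H3K4me3 regions the ones with the clearest values. Further ones were chosen after their values were seen. Promoter windows, gene lists and marker genes, planned for GRCm39 genes, were not used here, and H3K4me3 regions took their place. Regions and lists were chosen with earlier results of these data known. Alternatives covered the signal ranked, the scaling, list length, merging, the variance model, the replicate number and each library left out.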

Additional observations from a re-analysis of the deposited data

Results flagged for a closer look

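Each H3K18la list held 1 peak on the mitochondrial genome, outside the chromosomes compared. It took 3.69 and 2.90% of the summed signal of all peaks in replicates 1 and 2 of 4 dpi, against 4.54 and 5.20% in replicates 1 and 2 of 2 dpi. Mitochondrial DNA carries no histones, so this signal is outside the measurement. The shares did not overlap between the time points (exact permutation p = 0.333, the smallest that 2 libraries against 2 can give), and their part in the other results was not tested.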

How the results depend on the processing

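Of 28 regions with a tested shift that were described by rule, 1 reversed. At chr7:80422436-80432601, not called, the shift of 0.68 became -0.0370 with maximum signal. The 4 rises and 7 falls became 0 and 0 with maximum signal, with mean signal per called base and with limma without trend and robust variance, 36 and 77 with log2 of median-scaled signal, 39 and 64 with cyclic loess, 1 and 0 with the stricter threshold, 11 and 22 with regions in at least 3 libraries, and 2 and 5 with peaks up to 500 bp apart joined. Lists of equal length gave 6 and 14. Leaving out each library in turn gave 1 to 56 rises and 1 to 228 falls. All 11 calls held with equal lengths, both log2 scalings and regions in 3 libraries, and without 4 dpi replicate 2, while 8 held without 4 dpi replicate 1, 6 without 2 dpi replicate 1 and 4 without 2 dpi replicate 2. The 457 gains became 929 with equal lengths, 268 with the stricter threshold, 699 when a library had to cover 50% of a region, and 583 to 2100 without single libraries. The 1304 losses became 1758 to 10046 without single libraries and stayed within 1.5 times otherwise. The difference in median width, 99.5 bp, was -93.5 bp with lists of equal length and 34.5 to 164.5 bp without single libraries. Without single libraries the other differences ran from -11033.5 to 1354.5 peaks, from -16.9 to 3.83 Mb and from 1.06 to 5.43 points at H3K4me3. With gaps of 20 kb there were 8 higher and 20 lower runs, and with 100 kb 21 and 28, alternatives added after seeing the data. The alternatives with 0.5 kb promoter windows and those for gene lists were not run.

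With the replicate number as a block, 86 regions rose and 132 fell, and all 11 calls held. The numbers pair no libraries, since the mice of the time points differ, and deviations of replicate 1 from its group mean correlated with r = -0.06 over 9325 regions between the time points.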

Other observations

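The peak with the highest maximum lay at one place on chromosome 2 in all 4 lists. It held 1.31 and 0.935% of the summed signal at 4 dpi, against 1.78 and 1.28% at 2 dpi. Unplaced contigs held 30 peaks in each 4 dpi list, against 49 and 37 at 2 dpi, with 0.683 and 0.664% of the signal at 4 dpi and 0.971 and 0.768% at 2 dpi.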
